A study of Mus musculus with 6 samples.

Results

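Phosphoinositide 3-kinase (PI3K) genes were followed in BaF3 cells through 9 genes of the pathway: the brake Pik3ip1, the regulatory subunits Pik3r1 and Pik3r5, the catalytic subunits Pik3cd and Pik3cg, the lipid phosphatase gene Inpp5d, the kinase gene Akt1 and the transcription factor genes Foxo1 and Foxo3. They were taken by symbol from the deposited tables, which hold 18946 genes in all. Pik3ip1 was chosen by its FPKM, which had been seen to lie higher with both plasmid forms than in the control, so its values against the control are given as a description with no test. Of the 9 genes, 8 were in both tables and passed the filter on low values. Foxo1 was listed in the table of replicate 2 only, at FPKM (a level corrected for the length of the transcript and for how many fragments its library gave) of 0.11 in CTdel, 0.02 in ICN and 0.02 in con, and was not tested.

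BaF3 is a mouse pro-B line that depends on interleukin-3. All cells were kept in 2 ng/mL interleukin-3 and 10% serum, nucleofected with plasmid and sorted after 24 h, and the genotype of the line was the same in every group. The CTdel group received pmax-Clover-CTdel, which the design text names as the mutated form of ICN. The ICN group received pmax-Clover-ICN, which carries the intracellular part of NOTCH1 beside Clover, a green fluorescent protein. The con group received pmax-Clover alone. Each group had 2 libraries of polyadenylated RNA, one in each of the 2 deposited tables. The sources used here do not give what the letters CTdel stand for, the species of the insert or whether replicates were separate cultures. The p-values therefore speak only of the spread among these 6 libraries, which may be technical. The values cover 1 cell line at 1 time after transfection.

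PI3K adds a phosphate to a membrane lipid below activated receptors, and the product recruits AKT, which phosphorylates FOXO factors and keeps them out of the nucleus. Catalytic subunits work in pairs with regulatory ones. The delta subunit pairs with the p85 family downstream of tyrosine kinases, and the gamma subunit pairs with the Pik3r5 or Pik3r6 product downstream of G protein-coupled receptors. Interleukin-3 receptors feed this pathway in BaF3 cells, and in thymocytes and T-cell leukaemia Notch signalling is known to act on it.

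FPKM summed to between 489693 and 507894 per library. Relative depth, read from the smallest FPKM steps of microRNA and small nucleolar RNA genes, was 0.963 to 1.08 with con replicate 1 taken as 1, while read totals are unknown. A smallest step need not be 1 read: at a length of 78 bases it was 5.00 and 1.20 in the CTdel libraries. Genes above 0 numbered 15822 and 15599 in CTdel, 16413 and 16946 in ICN, and 14951 and 14981 in con. Notch1, which the plasmids supply, had FPKM 84.9 and 25.4 in CTdel, 190 and 888 in ICN, and 0.89 and 1.72 in con. The interleukin-3 receptor genes Il3ra, Csf2rb and Csf2rb2 were present in every library. Kit and Cd34, of the same list of progenitor markers, reached at most 0.02 and 0.04, and Kit was listed for replicate 1 only. The B-lineage factor genes Ebf1 and Pax5 reached at most 0.02 and 0.25. Not all B-lineage markers were that low. The 8 of them summed to FPKM 9.34 to 18.15 in CTdel, 7.27 to 8.10 in ICN and 3.77 to 5.57 in con. Of the 2 tested, 0 passed in any comparison. The 10 myeloid markers summed to FPKM 659 to 674 in CTdel, 216 to 374 in ICN and 110 to 163 in con, with Elane at or near 0 throughout. The 7 erythroid and megakaryocyte markers summed to FPKM 217 to 368 in CTdel, 268 to 461 in ICN and 314 to 733 in con. In bulk RNA, fewer cells of a type and less RNA per cell cannot be told apart.

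The stretches of DNA before a start site of Pik3ip1 and of Pik3r5 are shown because these are the genes of the set with the largest changes. Both are the 250 bases before a RefSeq start on the plus strand of GRCm38.p6, from chr11:3330481-3330730 and chr11:68431875-68432124, and the Pik3ip1 stretch lies inside the range that RefSeq gives that gene, which begins further upstream. Capitals mark the GC box letters GGGCGG on either strand.
Pik3ip1: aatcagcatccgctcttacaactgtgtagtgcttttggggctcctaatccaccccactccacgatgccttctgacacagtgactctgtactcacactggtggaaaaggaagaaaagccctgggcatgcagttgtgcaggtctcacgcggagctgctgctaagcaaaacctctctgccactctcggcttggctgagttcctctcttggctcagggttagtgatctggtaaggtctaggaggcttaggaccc
Pik3r5: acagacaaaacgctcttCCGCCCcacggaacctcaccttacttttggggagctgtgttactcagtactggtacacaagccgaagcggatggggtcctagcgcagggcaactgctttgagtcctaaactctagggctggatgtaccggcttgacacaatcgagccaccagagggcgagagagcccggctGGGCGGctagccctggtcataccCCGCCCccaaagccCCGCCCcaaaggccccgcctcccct

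The Pik3r5 stretch held 4 GC boxes and the Pik3ip1 stretch held none, and 32.7% of the 32851 RefSeq stretches of this length held at least one. The letters TGGGAA of the core bound by RBPJ, the DNA-binding partner of Notch, were in neither stretch on either strand, against 21.6% of all stretches. The longer form GTGGGAA, which contains that core, was in 5.42% of all stretches. It occurred at a start of Pik3cd, in 2 places, and at that of Inpp5d. The FOXO letters GTAAACA were in stretches of Pik3cg and Akt1 and in 3.17% of all, and the PU.1 letters GAGGAAGT in stretches of Pik3cg and Inpp5d and in 2.44% of all. These are matches of letters within short windows and say nothing of binding.

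Pik3ip1 (Gene ID 216505, chromosome 11, 3319241 to 3342971 in GRCm38), a membrane protein that binds the catalytic subunit and damps PI3K, had FPKM 12.4 and 7.05 in CTdel, 15.3 and 8.62 in ICN, and 2.95 and 1.57 in con, replicates 1 and 2. The 4 libraries of CTdel and ICN were all higher than either con library, and replicate 1 was the higher library in each group. Within a table the ratio was thus nearly constant, at 4.2 and 4.49 for CTdel over con and 5.20 and 5.49 for ICN over con. On the log2(FPKM + 1) scale, which understates changes of low genes, the differences from con were 1.76 and 1.65 in CTdel and 2.05 and 1.90 in ICN.

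The forms were then set against each other, a contrast that did not choose the gene. Pik3ip1 had mean FPKM 9.72 ± 3.78 in CTdel and 12.0 ± 4.74 in ICN (SD, n = 2 each), and the groups overlapped. The log2 change of CTdel against ICN was −0.27 ± 0.20 (SE; 95% interval −0.76 to 0.22, limma adjusted p = 0.752), so a difference was not detected, and the interval admits a fall of 0.76. That interval rests on a fit with the table as a term. Without this term the SE was 0.38 (limma adjusted p = 0.909), which admits a wider range. CTdel was the lower of the forms in both tables. Within each table the order of the groups for Pik3ip1 was that for Notch1, with ICN above CTdel and CTdel above con. The steps above con in this order were fixed by the choice of the gene, and the step between the forms was not detected. From ICN replicate 1 to replicate 2, Notch1 went from 190 to 888 and Pik3ip1 from 15.3 to 8.62. A link between the 2 genes was not tested.

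**Figure D1:**
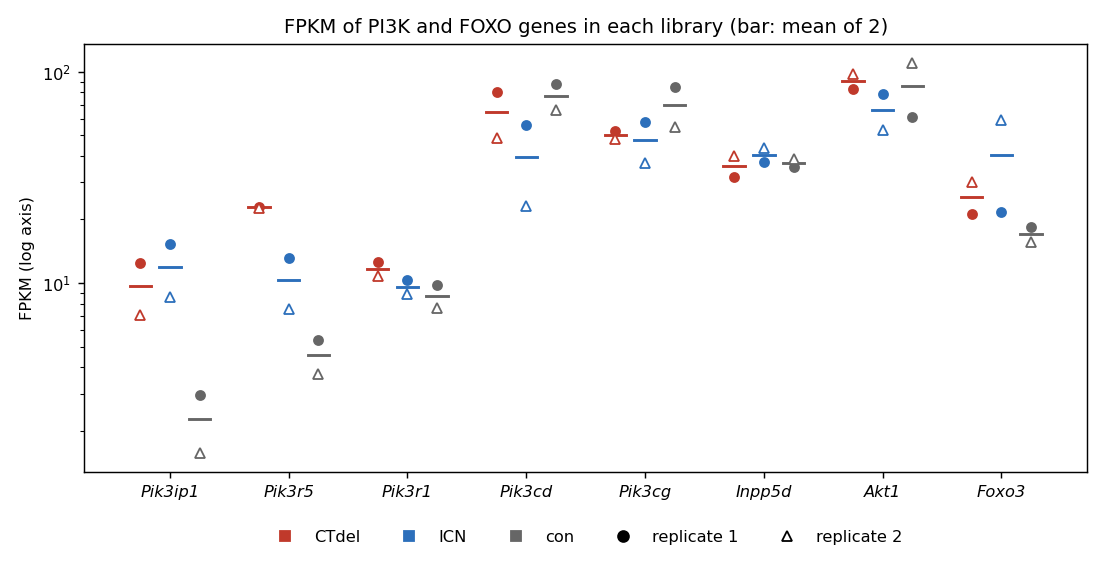
FPKM (log axis) of the 8 tested genes in CTdel, ICN and con libraries; circles are replicate 1, triangles replicate 2 and bars the mean of 2. Pik3ip1, Pik3r5 and Foxo3 lie higher in all 4 libraries of CTdel and ICN than in con, and the 2 CTdel values of Pik3r5, 22.9 and 22.8, nearly coincide.

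Pik3r5 (Gene ID 320207, chromosome 11, 68432125 to 68497849), the subunit through which the gamma kinase senses G protein beta-gamma dimers, was the gene of the set that rose in CTdel by the test. It had FPKM 22.9 and 22.8 in CTdel, 13.1 and 7.54 in ICN, and 5.39 and 3.73 in con. The 3 groups did not overlap, with CTdel on top and ICN between it and con. Its level was 22.8 ± 0.071 in CTdel and 4.56 ± 1.17 in con (SD, n = 2 each), a log2 change of 2.12 ± 0.24 (SE; limma, adjusted p = 0.0261 over 11050 genes).

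In ICN, Pik3r5 averaged 10.3 ± 3.94, a log2 change of 1.0 ± 0.24 against con that did not pass (adjusted p = 0.201). The change of CTdel against ICN was 1.12 ± 0.24 (95% interval 0.52 to 1.72) and did not pass over all genes either (adjusted p = 0.457), although CTdel was higher in both tables, by 0.76 and 1.48. Taken jointly against con, the forms showed a rise of Pik3r5 of 1.56 (adjusted p = 0.0404). That joint call was lost without con replicate 1 (adjusted p = 0.0905), without con replicate 2 (0.120), without a filter on low genes (0.202) and with quantile normalization (0.0561). The rise in CTdel kept its size when a library was left out, between 1.83 and 2.40, but its adjusted p was 0.0574 and 0.0560 without con replicates 1 and 2, 0.0999 without CTdel replicate 2 and 0.154 without a filter on low genes. The summed myeloid markers moved with it in the order of the groups, and 4 of 8 tested ones rose in CTdel. Spi1, the gene of PU.1, made the largest part of that sum in CTdel and ICN, with FPKM 281 and 463 in CTdel, 155 and 139 in ICN, and 39.1 and 47.7 in con. Lyz2 and Adgre1 did not follow that order, and their groups overlapped. The summed mast cell and basophil markers moved the other way. They were 64.5 to 86.8 in CTdel, 87.8 to 117 in ICN and 199 to 265 in con. Gata2 made the largest part of that sum in every group. Its FPKM was 74.7 and 61.8 in CTdel, 104 and 78.0 in ICN, and 238 and 192 in con. Of the 3 tested, Gata2 and Cpa3 fell in CTdel, with log2 changes of −1.64 and −1.88 (limma, adjusted p = 0.0261 and 0.0437). The third lay higher in each CTdel and ICN library than in either con library, and its change did not pass. The part of these markers in the result was not tested.

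Among the 7 tested genes other than Pik3ip1, 1 rose and 0 fell in CTdel against con, where 1.41% of all tested genes were called. In ICN against con 0 were called against 0.0362% of all genes, and 3 had an unadjusted p under 0.05 against 15% of all. In CTdel against ICN 0 of 8 were called, against 0.0181% of all, and 2 had an unadjusted p under 0.05 against 7.13% of all. With both forms together 1 of 7 rose against 1.11% of all. The groups did not overlap for 4 of 7 genes in CTdel against con, where 41.8% of all genes stood apart in this way, for 3 of 7 in ICN against con (42.3% of all) and for 3 of 8 in CTdel against ICN (40.6% of all). Nothing about these 9 genes is read from those shares. The median change of the 7 was 0.13 in CTdel and 0.13 in ICN against con, beside −0.06 and 0.00 over all tested genes.

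**Figure D2:**
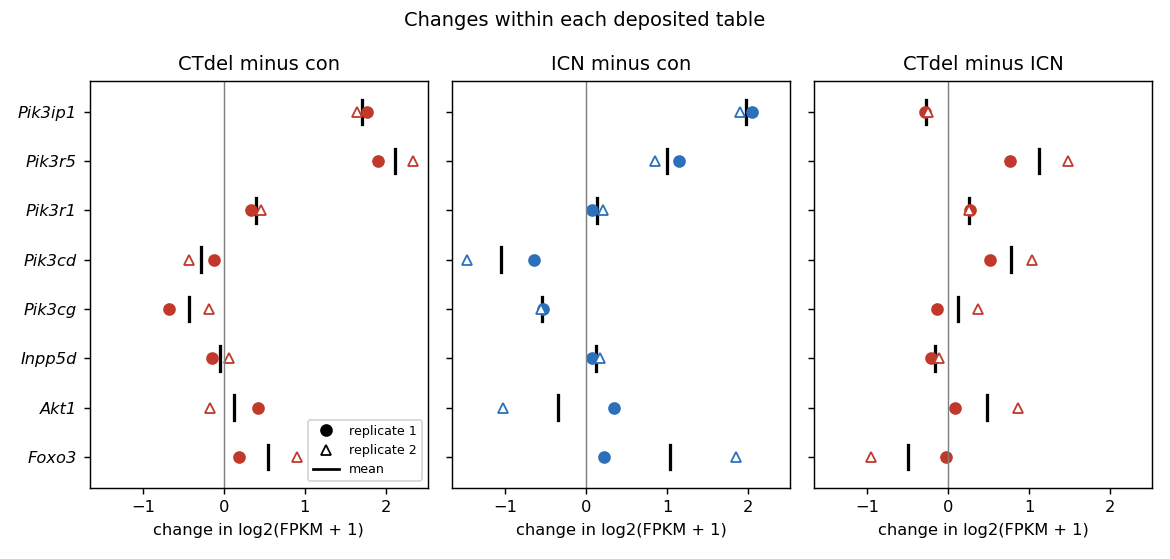
Change in log2(FPKM + 1) within each table for CTdel minus con, ICN minus con and CTdel minus ICN, on a common axis; circles are replicate 1, triangles replicate 2 and black lines the mean of 2. Pik3ip1 and Pik3r1 have nearly equal changes in the 2 tables, while Akt1 in ICN minus con has 0.35 in replicate 1 and −1.03 in replicate 2.

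The catalytic subunit genes of the set, Pik3cd and Pik3cg, had lower FPKM within each table with either form than in con, and neither passed the test. Pik3cd (chromosome 4, 149649168 to 149702566), the leukocyte delta kinase, had FPKM 80.7 and 48.8 in CTdel, 56.0 and 23.2 in ICN, and 87.9 and 66.1 in con. Both ICN libraries were below both con libraries, whereas CTdel overlapped con. CTdel minus con was −0.28 ± 0.26 on the log2 scale, with an adjusted p of 0.779, and ICN minus con was −1.05 ± 0.26, with an adjusted p of 0.201. CTdel minus ICN was 0.78 ± 0.26 (adjusted p = 0.663). Without ICN replicate 1 the ICN change was −1.39 (adjusted p = 0.00995), CTdel minus ICN was 1.11 (adjusted p = 0.0350) and the joint change of the forms was −0.83 (adjusted p = 0.0247). Those values rest on ICN replicate 2 as the lone library of its group, and without replicate 1 the shares of all tested genes called were 13.3%, 8.06% and 11.2% in the same 3 comparisons.

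Pik3cg (chromosome 12, 32173397 to 32208677), the gamma kinase, had FPKM 52.7 and 48.0 in CTdel, 58.2 and 36.9 in ICN, and 84.6 and 54.7 in con. It was lower than con within each table for either form, and both CTdel libraries lay below both con libraries. Against con, CTdel had a log2 change of −0.43 ± 0.23 and ICN one of −0.54 ± 0.23, with adjusted p of 0.580 and 0.338. CTdel and ICN overlapped, with a difference of 0.11 and a 95% interval of −0.44 to 0.67 (adjusted p = 0.909).

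Other catalytic genes, named after their values were seen, did not all share this direction. Pik3cb, the beta kinase, had FPKM 27.8 and 22.3 in CTdel, 22.3 and 16.8 in ICN, and 11.9 and 19.98 in con. Its log2 change was 0.66 in CTdel (adjusted p = 0.533) and 0.31 in ICN (adjusted p = 0.644). Pik3ca, the alpha kinase, had −0.24 in CTdel (adjusted p = 0.812) and 0.05 in ICN (adjusted p = 0.940).

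Pik3r1 (chromosome 13, 101680761 to 101768217), whose p85 alpha protein steadies and restrains the class IA kinases, did not pass in either form against con. It had FPKM 12.6 and 10.8 in CTdel, 10.3 and 8.92 in ICN, and 9.78 and 7.59 in con. CTdel stood above con in both libraries by 0.40 ± 0.19 (adjusted p = 0.543), and ICN differed from con by 0.14 ± 0.19 (adjusted p = 0.745). The values join the short and long forms of the gene's protein.

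Inpp5d (chromosome 1, 87620312 to 87720510), which encodes the SHIP phosphatase that removes the PI3K product in blood cells, was the steadiest of the set. Its FPKM were 31.9 and 40.1 in CTdel, 37.3 and 43.6 in ICN, and 35.4 and 38.5 in con. All 3 groups overlapped. The 95% interval of the log2 change ran from −0.52 to 0.44 in CTdel and from −0.36 to 0.61 in ICN against con (adjusted p = 0.967 and 0.774).

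Akt1 (chromosome 12, 112653821 to 112674884), the kinase that reads the lipid signal, had FPKM 82.9 and 97.4 in CTdel, 78.5 and 53.1 in ICN, and 61.4 and 110 in con. The con libraries enclosed nearly the whole range of the others, and the ICN change was 0.35 in replicate 1 and −1.03 in replicate 2. Neither form passed against con (log2 change 0.13 ± 0.34 in CTdel, adjusted p = 0.934, and −0.34 ± 0.34 in ICN, adjusted p = 0.640), and the intervals reached −0.72 to 0.98 and −1.19 to 0.51.

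Foxo3 (chromosome 10, 42181845 to 42276695), a transcription factor that AKT keeps out of the nucleus, was tested beside Foxo4, which had FPKM between 6.88 and 9.67 over the 6 libraries and did not pass. It had FPKM 21.1 and 30.2 in CTdel, 21.6 and 59.4 in ICN, and 18.4 and 15.7 in con. Each CTdel and ICN library was above each con library, and ICN replicate 2 was far above the rest. CTdel minus con was 0.54 ± 0.39 on the log2 scale, with an adjusted p of 0.691, and ICN minus con was 1.04 ± 0.39, with an adjusted p of 0.315. CTdel minus ICN was −0.49 ± 0.39 (adjusted p = 0.759). ICN replicate 2 decided the size in ICN: the change was 1.67 (adjusted p = 0.00773) when ICN rested on that library and 0.40 when it rested on replicate 1. Without ICN replicate 1 both forms together lay above con by 1.11 (adjusted p = 0.0122), in the setting where 11.2% of all tested genes were called.

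The balance of subunits was described with ratios of FPKM, a length-scaled unit, chosen after the values were seen. Pik3r5 over Pik3cg was 0.434 and 0.474 in CTdel, 0.225 and 0.204 in ICN, and 0.0637 and 0.0682 in con. The groups were separate, and the spread within each was small beside the steps between them. With 2 libraries a group an exact permutation test cannot give a p under 0.333, which it gave for each pair. Pik3r5 made up 35.1 ± 2.16% of the summed FPKM of 5 class I regulatory subunit genes in CTdel, 21.6 ± 4.32% in ICN and 10.6 ± 3.66% in con (SD, n = 2 each). Pik3r2, another p85 subunit, made up 32.2 ± 8.23%, 39.8 ± 5.11% and 55.03 ± 11.3% in the same order. Shares of one sum are tied, so a rise of Pik3r5 lowers the others. Pik3r2 itself had FPKM 16.49 and 25.82 in CTdel, 19.24 and 17.65 in ICN, and 19.16 and 29.22 in con. Its log2 changes against con, −0.19 in CTdel and −0.35 in ICN, did not pass (limma, adjusted p = 0.856 and 0.538).

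Pik3r6, the other partner of the gamma kinase, lies 5169 bases past the end of Pik3r5 on chromosome 11. It had FPKM 9.43 and 7.55 in CTdel, 8.79 and 4.05 in ICN, and 4.79 and 4.11 in con, a log2 change of 0.80 ± 0.26 in CTdel that did not pass (adjusted p = 0.302).

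**Figure D3:**
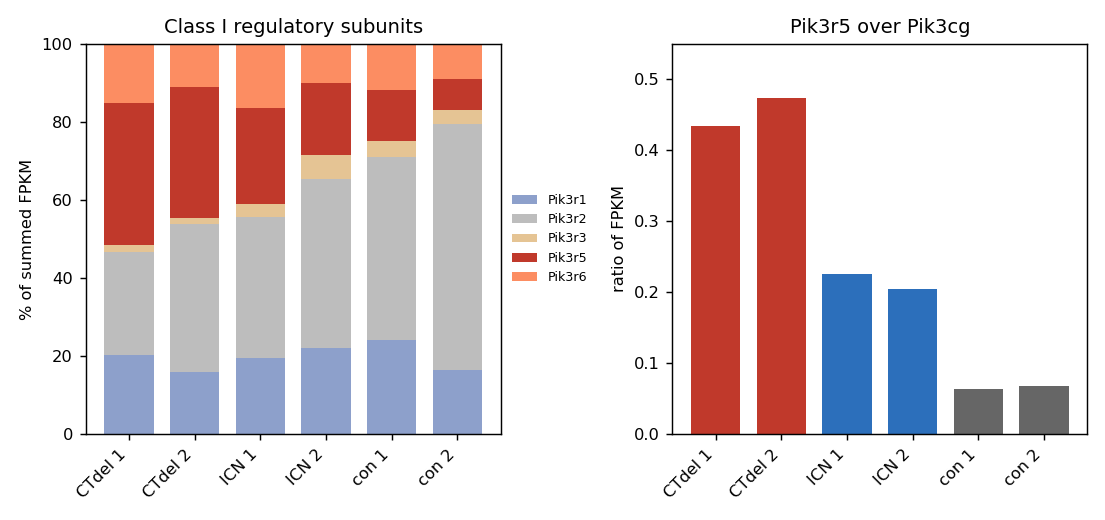
Left, share of each gene in the summed FPKM of 5 class I regulatory subunit genes, by library, in percent; right, FPKM of Pik3r5 divided by that of Pik3cg, by library. Pik3r5 takes the largest share in CTdel replicate 1, and its ratio to Pik3cg is 0.434 and 0.474 in CTdel, 0.225 and 0.204 in ICN and 0.0637 and 0.0682 in con.

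Of 78 other genes of the pathway and of FOXO targets, 64 were tested, and 0 passed in any of the 4 comparisons (limma). An unadjusted p under 0.05 was found for 6 (9.38%) in CTdel against con, 8 (12.5%) in ICN against con, 6 (9.38%) in CTdel against ICN and 8 (12.5%) with both forms together. Among all tested genes these shares were 11.8%, 15%, 7.13% and 15.4%. Of 11 other PI3K subunits and adaptors, 7 lay above con in CTdel and 10 in ICN, where 42.1% and 50.1% of all tested genes did, with medians of 0.11 and 0.31. Pik3ap1, an adaptor that brings PI3K to B-cell and Toll-like receptors, had FPKM 25.9 and 24.8 in CTdel, 22.6 and 20.4 in ICN, and 13.4 and 16.2 in con (log2 change 0.74 in CTdel, adjusted p = 0.221, and 0.51 in ICN, adjusted p = 0.336). Gab3, a docking protein, had a change of 0.80 in ICN (adjusted p = 0.244), and Pik3r3, a small regulatory subunit, one of −0.62 in CTdel against ICN (adjusted p = 0.698).

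Of 14 phosphatase genes, 10 lay above con in CTdel and 7 in ICN, where 42.1% and 50.1% of all tested genes did. Their medians were 0.28 and 0.01. Phlpp1, which dephosphorylates AKT, had FPKM 9.64 and 9.85 in CTdel, 8.58 and 10.9 in ICN, and 5.17 and 6.02 in con, and its changes of 0.71 and 0.70 did not pass (adjusted p = 0.229 and 0.244). Inpp4a, a lipid phosphatase gene, had a change of 0.56 in CTdel (adjusted p = 0.474). In CTdel against ICN the smallest p values of the list were those of Ocrl and Inpp5b, with changes of 0.58 and 0.44 (adjusted p = 0.705 each).

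The 19 tested AKT and mTOR genes had medians of −0.11 in CTdel and −0.07 in ICN against con. Sgk3, an AKT-like kinase, had FPKM 8.67 and 8.71 in CTdel, 6.52 and 3.90 in ICN, and 4.48 and 4.60 in con (log2 change 0.81 in CTdel, adjusted p = 0.266, and 0.67 in CTdel against ICN, adjusted p = 0.679). The translation brake Eif4ebp1 had −0.60 in CTdel (adjusted p = 0.581), and Gsk3a had 0.46 in CTdel against ICN (adjusted p = 0.705). The S6 kinase gene Rps6kb1 and Rptor, the gene of the mTORC1 scaffold Raptor, had −0.43 and −0.40 in ICN (adjusted p = 0.378 and 0.406).

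FOXO target genes had a median change of 0.15 in CTdel and 0.49 in ICN against con over 21 tested genes. For either form 14 lay above con, where 42.1% of all tested genes did in CTdel and 50.1% in ICN. The lymphocyte targets Klf2, S1pr1, Il7r, Rag1 and Rag2 were among 9 that stayed at or under FPKM 0.59 and were not tested. Bcl2l11, the death gene BIM, had FPKM 8.37 and 6.41 in CTdel, 10.6 and 34.8 in ICN, and 3.95 and 3.98 in con, with a change of 2.03 ± 0.48 in ICN that did not pass (adjusted p = 0.190). Txnip, which limits glucose uptake, had 146 and 128 in CTdel, 245 and 637 in ICN, and 145 and 89.6 in con (1.79 ± 0.48 in ICN, adjusted p = 0.231, and −1.53 ± 0.48 in CTdel against ICN, adjusted p = 0.658). ICN replicate 2 was the highest library for both genes, as for Foxo3.

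Cited2, a co-regulator, went the other way, with FPKM 135 and 87.3 in CTdel, 186 and 113 in ICN, and 220 and 215 in con (−1.0 ± 0.24 in CTdel, adjusted p = 0.159). Btg1, an antiproliferative gene, lay 0.86 above con in CTdel (adjusted p = 0.428). Joint testing of the forms gave 1.04 (adjusted p = 0.210). Without ICN replicate 1, 7 of the 64 genes passed in ICN against con, among them Bcl2l11 (2.93) and Txnip (2.69), and 9 in CTdel against ICN. In that setting 13.3% and 8.06% of all tested genes passed in those comparisons.

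**Figure D4:**
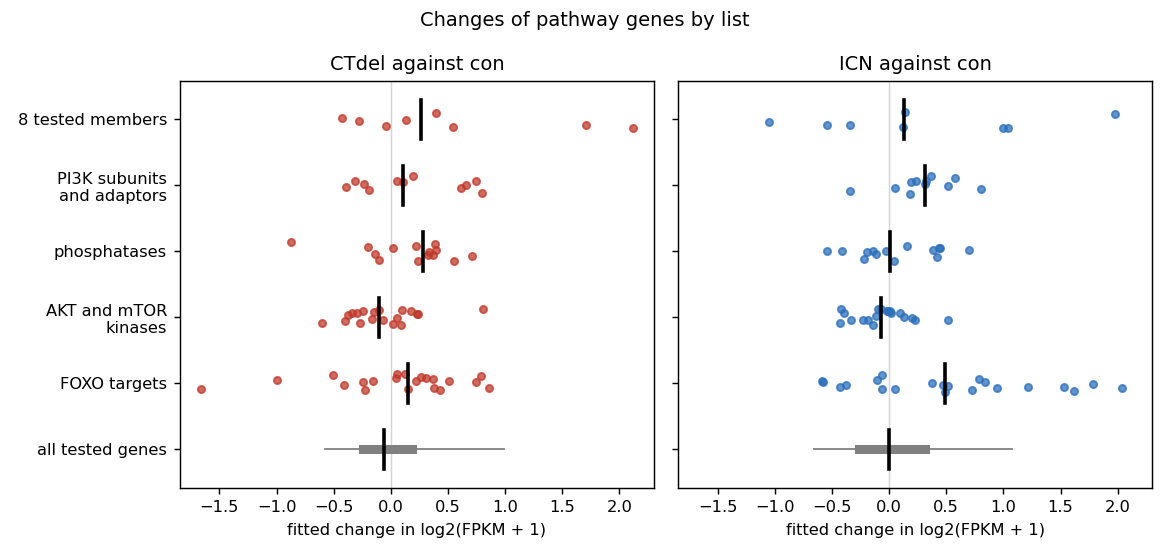
Fitted change in log2(FPKM + 1) of each tested gene by list, for CTdel against con and ICN against con; dots are genes, black lines medians, and the grey bar spans the middle 50% and the thin line the middle 90% of 11050 genes. The FOXO targets have a median of 0.49 in ICN and 0.15 in CTdel; the 8 tested members include Pik3ip1, which was picked for its change.

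The 5 genes whose pattern was most like that of Pik3ip1 were found by the root mean square difference in log2(FPKM + 1), centred in each table, over the 6 libraries. They were Mir6958 (0.10), Slc7a11 (0.16), Gm12505 (0.17), Mir677 (0.19) and Dnmt3l (0.22). Slc7a11, the cystine importer, had FPKM 54.2 and 20.3 in CTdel, 47.1 and 21.0 in ICN, and 11.6 and 5.94 in con. Like Pik3ip1 it was higher in replicate 1 of each group. Dnmt3l, a cofactor of DNA methylation, had 16.0 and 21.2 in CTdel, 12.9 and 17.9 in ICN, and 3.19 and 4.53 in con. The microRNA genes rest on few reads: Mir6958 was listed at 0 in con and at 2.84 in CTdel replicate 1, where the lowest value above 0 at its length was 1.42. Of the other members, Pik3r5 came nearest, at rank 503 of the tested genes by this measure (0.60).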

How the data were processed

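Polyadenylated RNA of 6 BaF3 libraries was analysed, 2 each for CTdel, ICN and con. Per the file headers, the authors deposited FPKM per gene, with the 3 libraries of a replicate number in one table. HISAT2, Bowtie2 and RSEM, and both hg19 and mm10, are listed in the submitters' processing notes without roles. Gene coordinates came from RefSeq for GRCm38.p6, in which 18898 of 18946 Gene IDs were found. Promoter letters came from RefSeq too, and all 9 genes matched.

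The test was limma 3.58.1 in R 4.3.3 on log2(FPKM + 1), 2-sided with an intensity trend. It covered the 11050 genes of both tables that reached FPKM 1 in 2 or more libraries, with Benjamini-Hochberg adjustment and a threshold of 0.05. Groups and table were terms, since each replicate number was deposited in a table of its own, which left 2 residual degrees of freedom. The fit was run on simulated data with independent noise and no table effect, where median estimates lay near the sizes set. That run did not check the table term, and its share of false calls is not reported here. Values after ± of a log2 change are standard errors. The members and lists were chosen with earlier results of these data known. Named genes were the members, Notch1, up to 4 called genes of a list per comparison or else the 2 with the smallest p, and the 5 genes most like Pik3ip1. A gene that this rule names and a marker are not reported here. Cell type markers were named as a check of the label, and Pik3r2 and Pik3r6 beside the subunit shares after seeing the data. Alternatives concerned pseudocount, filter, scaling, spread, the table term, the libraries fitted and each library left out. FPKM keep no read counts, so no counting interval was given.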

Additional observations from a re-analysis of the deposited data

Results flagged for a closer look

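For 2 genes of the pathway lists the forms moved in opposite directions from con in both replicates, and this opposition itself was not tested. Pik3r3 had log2 changes of −0.31 and −0.47 in CTdel replicates 1 and 2, and of 0.075 and 0.39 in ICN, at FPKM between 0.95 and 2.53. Atg12, an autophagy gene, had −0.67 and −0.15 in CTdel and 0.0083 and 0.93 in ICN. The direct comparison of CTdel with ICN gave limma adjusted p of 0.698 for Pik3r3 and 0.658 for Atg12.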

How the results depend on the processing

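Fitting without the replicate block, that is without the table as a term, left the counts of called members at 1 in CTdel against con, 0 in ICN against con, 0 in CTdel against ICN and 1 with both forms together, and the adjusted p of Pik3r5 in CTdel was then 0.0289. Same-numbered libraries deviated together in CTdel and ICN (r = 0.24 across genes) and in CTdel and con (0.33) but not in ICN and con (−0.10). The table was kept as a term because each replicate number was deposited in a table of its own. The labels do not say that a number marks libraries of one origin, or that the tables were made separately. Without a filter on low genes 0 members passed in CTdel against con and 0 with both forms together, and with quantile normalization 0 passed with both forms together. With the compared groups fitted alone, 2 of the 64 other pathway genes passed in CTdel against con and 1 in ICN against con, where 6.61% and 1.47% of all tested genes passed. With each library left out in turn, called members numbered 0 to 1 in CTdel against con, 0 to 2 in ICN against con, 0 to 2 in CTdel against ICN and 0 to 3 with both forms together. Other pathway genes numbered 0 to 2, 0 to 7, 0 to 9 and 0 to 8 in the same order. The shares of all tested genes called ran from 0.986% to 6.62%, from 0.0995% to 13.3%, from 0.0181% to 8.06% and from 0.434% to 11.2%. In those settings the change of Akt1 ran from −0.36 to 0.62 in CTdel against con, from −0.88 to 0.20 in ICN against con, from −0.071 to 1.01 in CTdel against ICN and from −0.60 to 0.39 with both forms. Inpp5d ran from −0.12 to 0.034 in CTdel against con and from −0.034 to 0.12 with both forms, Pik3cd from −0.56 to 0.0079 in CTdel against con, Foxo3 from −0.041 to 1.13 in CTdel against con and from −1.13 to 0.14 in CTdel against ICN, and Pik3cg from −0.13 to 0.36 in CTdel against ICN. Where a group kept 1 library, its spread was borrowed from the remaining groups, and the cause of these shifts was not tested.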
